A study of Mus musculus with 12 samples.

Results

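Class I antigen presentation and its lipid-presenting relative Cd1d1 were followed in CD4 T cells of Pkm2 knockout mice (KO) and of wild-type mice (WT). The set holds the class I heavy chains H2-K1, H2-D1 and H2-T23, their partner B2m, the peptide-loading genes Tap1, Tap2 and Tapbp, the class I regulator Nlrc5, and Cd1d1. All 9 of 9 were found by symbol among the 55450 genes of the count tables. They were chosen by their KO-against-WT differences and their difference of responses in these same libraries, so those values are a description. Where calls of the 9 in those comparisons are counted below, the counts are not a result. Their response to stimulation is tested.

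Messenger RNA came from naive T cells, positively selected for CD4. Stimulated KO and stimulated WT cells spent 24 h with interleukin 7 (IL7, 25 ng/mL), a survival cytokine of naive T cells, on plates carrying anti-CD3 at 1 ug/mL and anti-CD28 at 2 ug/mL, antibodies that engage the T cell receptor and its costimulatory partner. Resting KO and resting WT cells had the same IL7 without the antibodies. Each group held 3 libraries. The labels name neither the knockout allele nor what drove its deletion, and they do not say that a group's libraries came from different mice. The p-values therefore measure only how much these libraries vary, which may be technical.

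Class I molecules show peptides from inside the cell to CD8 T cells, and natural killer cells also survey them. Each is a heavy chain held by beta-2 microglobulin, the product of B2m; H2-K1 and H2-D1 encode the classical K and D chains and H2-T23 the nonclassical Qa-1 chain. Tap1 and Tap2 form the pump that carries peptides into the endoplasmic reticulum, tapasin (Tapbp) holds empty class I molecules beside the pump, and Nlrc5 is a transactivator of class I promoters. Cd1d1 encodes a class I-like chain that presents lipids to natural killer T cells and is found on B cells and myeloid cells as well as thymocytes.

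Pkm, the targeted gene, was at 1056, 1065 and 1036 CPM in stimulated KO, 2483, 2450.4 and 2521 CPM in stimulated WT, 172, 195 and 188 CPM in resting KO, and 424, 431 and 509 CPM in resting WT libraries, in scaled CPM (read counts relative to library size), so KO lay below WT in both conditions. Library totals ran from 67333490 to 76891786 counts when stimulated and from 63266477 to 72128433 at rest. The 13 CD4 T cell markers summed to 3389.8 to 3499 CPM in stimulated and 4944 to 6173 CPM in resting libraries, so the labelled cell type was present in every one. Xist was at 941 to 1126 CPM across stimulated and 0.0496 to 0.0867 CPM across resting libraries. Ddx3y, a Y-linked gene, was at 0 in every stimulated library and at 143 to 167 CPM in the resting ones. By these transcripts the stimulated libraries came from female and the resting ones from male mice, so the conditions did not share mice. Stimulation, sex and the deposited table that held a library cannot be told apart. Every change with stimulation given below is a difference of stimulated from resting libraries and carries this limit.

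Promoter stretches are shown for H2-K1, B2m and Tap1, a heavy chain, its partner and a pump subunit, to show the letters of known class I promoter motifs. The RefSeq promoter table (GRCm38.p6) matched 6 of the 9 genes; Tap2, Nlrc5 and Cd1d1 had no entry. Each stretch runs 5′ to 3′ and lies before the start site of both RefSeq and GENCODE M21. The GENCODE models of H2-D1, H2-T23 and Tapbp begin upstream of their motif stretches, which are not printed. Capitals mark the letters of a kappaB site, of the interferon regulatory factor core AANNGAAA, of the cyclic AMP response element core TGACG, or of CCAAT, each searched on both strands. H2-K1 lies at chr17:34000348-34000463 (minus strand), B2m at chr2:122147545-122147643 (plus strand) and Tap1 at chr17:34187329-34187479 (plus strand).
H2-K1: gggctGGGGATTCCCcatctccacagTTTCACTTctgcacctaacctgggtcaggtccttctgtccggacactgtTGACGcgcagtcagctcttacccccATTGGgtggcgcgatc
B2m: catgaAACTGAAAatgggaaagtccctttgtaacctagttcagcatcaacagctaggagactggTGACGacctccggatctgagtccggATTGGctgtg
Tap1: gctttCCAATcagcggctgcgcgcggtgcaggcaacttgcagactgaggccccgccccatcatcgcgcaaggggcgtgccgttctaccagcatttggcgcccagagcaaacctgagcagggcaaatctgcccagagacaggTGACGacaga

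Over stretches that span all their motifs, of 130 bases in H2-K1 and 133 in H2-D1, these genes matched at 114 aligned positions (85.1%), with 15 mismatches and 5 gap positions. The kappaB letters were in 2 of 6 members' windows, H2-K1 and H2-D1, and in 0.107% of all 32851 windows of the same length. The interferon regulatory factor core was in 4 of 6 (23.9% of all windows) and TGACG in 4 of 6 (20.8%). CCAAT was in 6 of 6 (37.4%). The windows of Tap1, which rose with stimulation, and of Tapbp, which fell, both held neither the kappaB letters nor the interferon regulatory factor core. A match describes letters in a window, not a site in use.

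With stimulation most of the class I genes fell in both genotypes while Tap1 rose. In KO cells 7 of 9 fell and 1 rose, and in WT cells 8 of 9 fell and 1 rose (edgeR quasi-likelihood test, Benjamini-Hochberg adjusted p under 0.05 over all genes). Such calls were common: in KO cells 82.9% of 17460 genes passed, 43.2% lower and 39.6% higher, and in WT cells 84.1%, 44.8% lower and 39.3% higher. All 9 of 9 had stimulated and resting libraries that did not overlap, as did 86.7% of genes in KO and 84.7% in WT cells. The median log2 change of the 9 was -0.42 in KO and -0.66 in WT cells, beside -0.11 in KO and -0.14 in WT cells over all genes. Scaling matters here: it lifts every stimulated over resting change by 0.33 in KO and 0.34 in WT cells (log2) relative to unscaled totals. Under unscaled totals each of the 9 kept its direction, and Tap1's rise was 0.17 in KO and 0.08 in WT cells. With B cell, myeloid and dendritic markers as a covariate, 3 of 9 passed in each genotype (H2-K1, Nlrc5 and Cd1d1, all lower). In that fit 7626 of 17460 genes passed in KO and 6221 in WT cells. Tap1 stood at 0.19 in KO and 0.02 in WT cells. Myeloid markers summed to 45.4 to 109.9 CPM in stimulated and 1167 to 3656 CPM in resting libraries, so the covariate largely tracks stimulation. Tap2 in KO cells stayed at -0.09, with an edgeR adjusted p of 0.74. A stimulation call lost with the covariate, here or below, cannot be assigned to marker content. In bulk RNA, fewer cells of a type and less RNA per cell cannot be told apart.

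**Figure D1:**
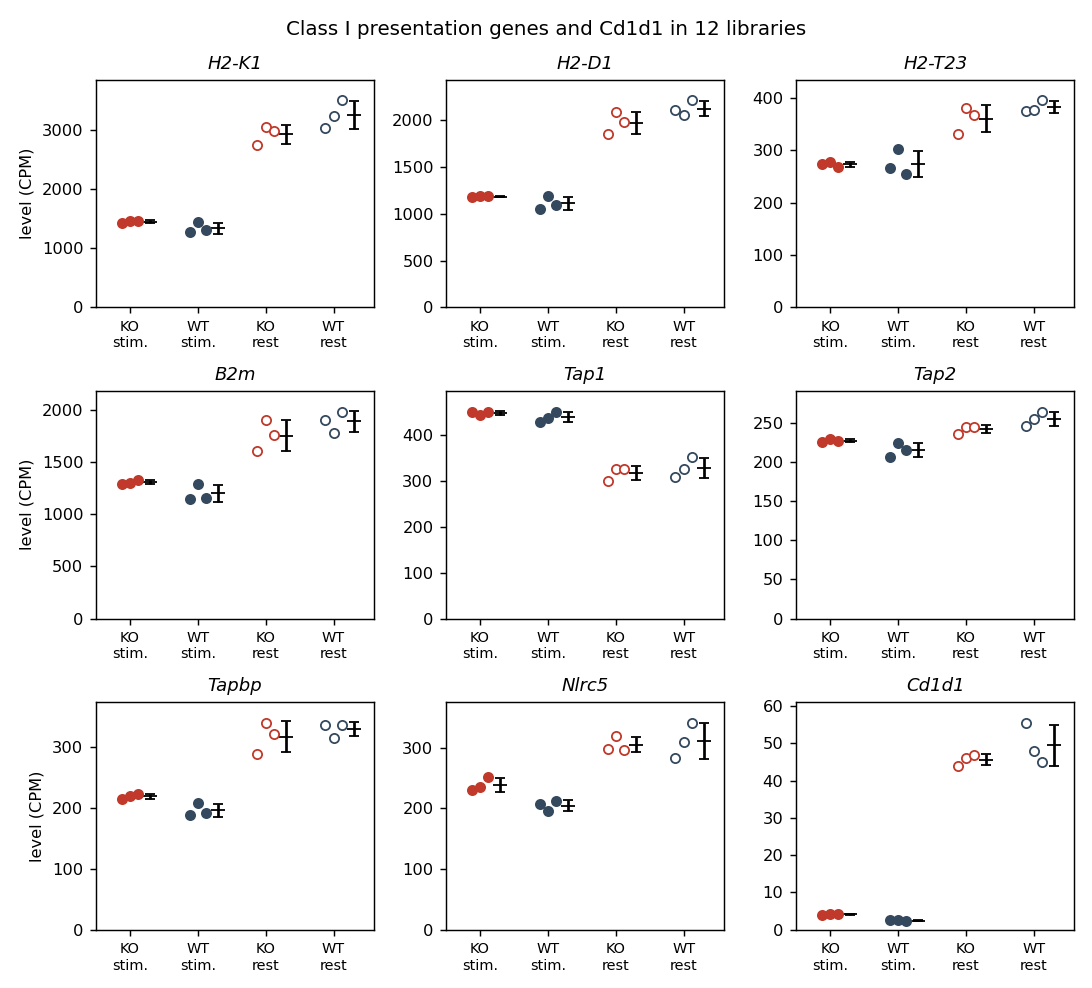
Level of each of the 9 genes in CPM (vertical axis) in every library of the 4 groups; filled points are stimulated and open points resting libraries, and bars give mean ± SD (n = 3). Tap1 has its stimulated libraries above its resting ones, and Cd1d1 has at most 4.33 CPM in stimulated and at least 44.1 CPM in resting libraries.

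**Figure D2:**
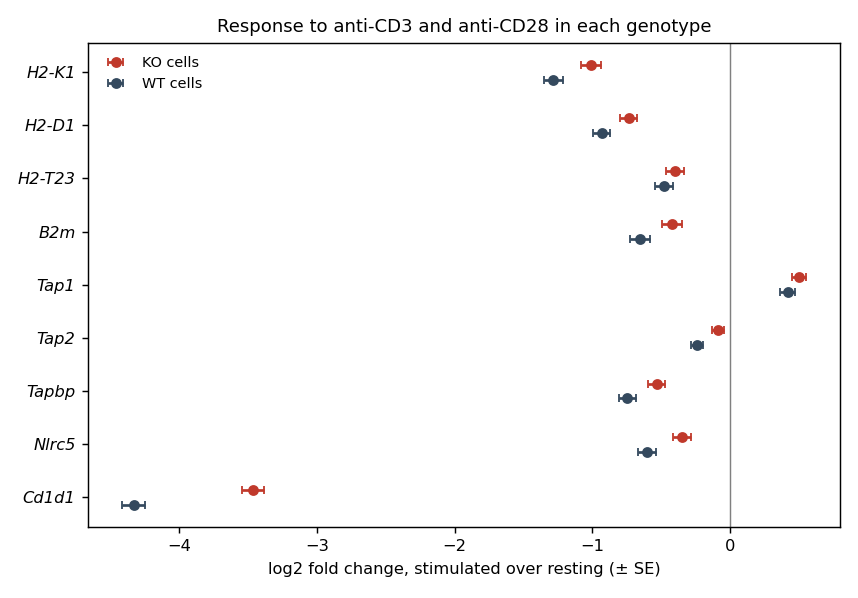
Log2 fold change of stimulated over resting cells with its SE for the 9 genes, in KO and in WT cells. The KO value exceeds the WT value for each gene, by 0.08 for H2-T23 and by 0.86 for Cd1d1.

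Per kilobase of exon, B2m was the most abundant of the 9, with 1522 ± 24.0 in stimulated KO, 1396 ± 92.9 in stimulated WT, 2041 ± 175 in resting KO and 2201 ± 119.7 in resting WT libraries (CPM per kb, SD, n = 3 each). H2-K1 was next, with 495 ± 7.76 in stimulated KO, 456 ± 30.4 in stimulated WT, 998 ± 54.5 in resting KO and 1109 ± 80.8 in resting WT libraries (CPM per kb). H2-D1 had 458 ± 2.28 in stimulated KO, 431 ± 27.0 in stimulated WT, 764 ± 45.0 in resting KO and 822 ± 31.6 in resting WT libraries (CPM per kb). The per-kilobase ratio of H2-K1 to H2-D1 was 1.08 ± 0.0122 in stimulated KO, 1.06 ± 0.00715 in stimulated WT, 1.31 ± 0.0172 in resting KO and 1.35 ± 0.0745 in resting WT libraries (SD, n = 3 each). It was above 1 in every library, and lower in every stimulated than in every resting one. The other 6 genes had group means of at most 132 CPM per kb, and Cd1d1 was lowest in all 4 groups.

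H2-K1 (chromosome 17, 33996017 to 34000347, minus strand, mm10) encodes the K chain. It had 1428, 1464 and 1471 CPM in stimulated KO, 1269, 1439.7 and 1309.7 CPM in stimulated WT, 2752, 3059 and 2984 CPM in resting KO, and 3029, 3246 and 3503 CPM in resting WT libraries. Every stimulated library lay below every resting one, and KO and WT overlapped within each condition. With stimulation H2-K1 fell, with log2 changes of -1.01 ± 0.07 in KO and -1.28 ± 0.07 in WT cells (± SE; edgeR adjusted p = 2.2e-08 in KO and 1.9e-09 in WT). KO over WT was 0.13 ± 0.04 in stimulated and -0.16 ± 0.08 in resting cells.

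H2-D1 (chromosome 17, 35262730 to 35267499, plus strand) encodes the D chain. Its levels were 1176, 1187 and 1184 CPM in stimulated KO, 1051, 1187 and 1094 CPM in stimulated WT, 1851, 2083 and 1979 CPM in resting KO, and 2106, 2048 and 2209 CPM in resting WT libraries. The stimulated KO libraries stood close together, with a coefficient of variation of 0.497% against 6.28% in stimulated WT libraries, and the groups overlapped. With stimulation H2-D1 fell, with log2 changes of -0.74 ± 0.06 in KO and -0.93 ± 0.06 in WT cells (± SE; edgeR adjusted p = 1.5e-07 in KO and 1.2e-08 in WT). The KO over WT difference was 0.10 ± 0.04 in stimulated and -0.11 ± 0.07 in resting cells.

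H2-T23 (chromosome 17, 36029773 to 36032855, minus strand) encodes Qa-1, which natural killer cell receptors recognise. It was at 274, 277 and 268 CPM in stimulated KO, 266, 303 and 255 CPM in stimulated WT, 331, 381 and 367 CPM in resting KO, and 376, 377 and 395 CPM in resting WT libraries. The stimulated KO libraries lay inside the range of the WT ones, with a log2 difference of -0.00015 ± 0.05. With stimulation it fell, with log2 changes of -0.40 ± 0.07 in KO and -0.48 ± 0.07 in WT cells (± SE; edgeR adjusted p = 1.0e-04 in KO and 1.9e-05 in WT). At rest the log2 difference of KO from WT was -0.10 ± 0.06, with overlapping libraries.

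B2m (chromosome 2, 122147686 to 122153083, plus strand) encodes the subunit that all these chains need. It had 1293, 1302 and 1332 CPM in stimulated KO, 1149.9, 1292 and 1158 CPM in stimulated WT, 1603, 1904 and 1758 CPM in resting KO, and 1909.5, 1782 and 1986 CPM in resting WT libraries. The stimulated KO libraries stood just above the highest WT one, while the resting groups overlapped. In stimulated cells B2m fell, with log2 changes of -0.42 ± 0.07 in KO and -0.66 ± 0.07 in WT cells (± SE; edgeR adjusted p = 1.2e-04 in KO and 2.0e-06 in WT). Between genotypes KO over WT was 0.13 ± 0.04 in stimulated cells, and in resting cells -0.12 ± 0.08. The ratio of H2-K1 to B2m counts, not scaled for length, was 1.11 ± 0.0113 in stimulated KO, 1.12 ± 0.0137 in stimulated WT, 1.67 ± 0.0585 in resting KO and 1.72 ± 0.123 in resting WT libraries (SD, n = 3 each). It was lower in every stimulated than in every resting library, and KO and WT differed by less than their spread in each condition.

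Tap1 (chromosome 17, 34187553 to 34197225, plus strand) encodes a pump subunit. It was at 448, 443 and 449.8 CPM in stimulated KO, 427, 437 and 449.7 CPM in stimulated WT, 299.6, 325 and 325 CPM in resting KO, and 307, 325 and 351 CPM in resting WT libraries. Here every stimulated library lay above every resting one, with KO and WT overlapping in both conditions. Tap1 rose by 0.50 ± 0.05 in KO and by 0.42 ± 0.05 in WT cells (log2 ± SE; edgeR adjusted p = 1.7e-06 in KO and 9.0e-06 in WT). Between genotypes it differed by 0.04 ± 0.03 in stimulated and -0.06 ± 0.06 in resting cells. Psmb9, an immunoproteasome subunit whose start lies 211 bases away on the opposite strand, rose by 0.46 ± 0.05 in KO and by 0.30 ± 0.05 in WT cells (edgeR adjusted p = 1.2e-06 in KO and 6.7e-05 in WT). Under unscaled totals Psmb9 stood at 0.13 in KO and -0.04 in WT cells, where it was not called. The sources used here do not say whether strand was used in counting, so reads where the 2 genes overlap are uncertain.

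Tap2 (chromosome 17, 34203527 to 34216321, plus strand) encodes the partner subunit. Its levels were 226, 229 and 226 CPM in stimulated KO, 206, 225 and 215 CPM in stimulated WT, 236, 245 and 244 CPM in resting KO, and 246, 254 and 264 CPM in resting WT libraries. The KO libraries stood above the WT ones when stimulated and below them at rest, in both cases by a narrow margin. It fell by 0.24 ± 0.04 in WT cells with stimulation (edgeR adjusted p = 1.8e-04), whereas the change in KO cells, -0.09 ± 0.04, missed the threshold (edgeR adjusted p = 0.073). It passed under 5 of 20 alternatives, at adjusted p between 8.7e-08 and 0.049 in those 5 and up to 0.74 in the others. The genotype difference was 0.09 ± 0.03 in stimulated and -0.08 ± 0.05 in resting cells. The Tap1 to Tap2 count ratio was 1.97 ± 0.0314 in stimulated KO, 2.04 ± 0.0807 in stimulated WT, 1.31 ± 0.0343 in resting KO and 1.29 ± 0.0392 in resting WT libraries (SD, n = 3 each). That ratio was higher in every stimulated than in every resting library.

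Tapbp (chromosome 17, 33915899 to 33929292, plus strand) encodes tapasin. It had 215, 219 and 222 CPM in stimulated KO, 188, 208 and 192 CPM in stimulated WT, 289, 339 and 321 CPM in resting KO, and 335, 315 and 336 CPM in resting WT libraries. Stimulated KO libraries lay above all stimulated WT ones, and resting KO and WT overlapped. With stimulation Tapbp fell, with log2 changes of -0.53 ± 0.06 in KO and -0.75 ± 0.06 in WT cells (± SE; edgeR adjusted p = 2.9e-06 in KO and 9.7e-08 in WT). Its KO over WT difference was 0.17 ± 0.04 in stimulated and -0.06 ± 0.07 in resting cells.

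Nlrc5 (chromosome 8, 94434356 to 94527272, plus strand) is the class I transactivator. It was at 230.0, 235 and 252 CPM in stimulated KO, 207, 195 and 212 CPM in stimulated WT, 298, 319 and 296 CPM in resting KO, and 282, 309 and 341 CPM in resting WT libraries. The stimulated KO libraries exceeded the WT ones without overlap, and the resting KO libraries lay within the WT range. With stimulation Nlrc5 fell, with log2 changes of -0.35 ± 0.07 in KO and -0.60 ± 0.07 in WT cells (± SE; edgeR adjusted p = 3.2e-04 in KO and 2.1e-06 in WT). KO over WT was 0.23 ± 0.04 in stimulated and -0.04 ± 0.07 in resting cells.

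Cd1d1 (chromosome 3, 86995834 to 86999441, minus strand) had the lowest level of the 9 and the widest change with stimulation. It was at 3.95, 4.11 and 4.33 CPM in stimulated KO, 2.52, 2.49 and 2.37 CPM in stimulated WT, 44.1, 46.0 and 46.8 CPM in resting KO, and 55.6, 47.9 and 45.0 CPM in resting WT libraries. The stimulated levels rest on 271 counts per KO and 160.0 counts per WT library on average. Stimulated KO libraries lay above all stimulated WT ones, a difference of 0.75 ± 0.10 (1.69-fold), while resting KO and WT overlapped at -0.13 ± 0.08. With stimulation Cd1d1 fell, with log2 changes of -3.46 ± 0.08 in KO and -4.33 ± 0.08 in WT cells (± SE; edgeR adjusted p = 5.2e-13 in KO and 1.6e-13 in WT). Of its 50-base stretches, 19.1% are shared with its near copy Cd1d2, which was at most 0.331 CPM in stimulated libraries.

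**Figure D3:**
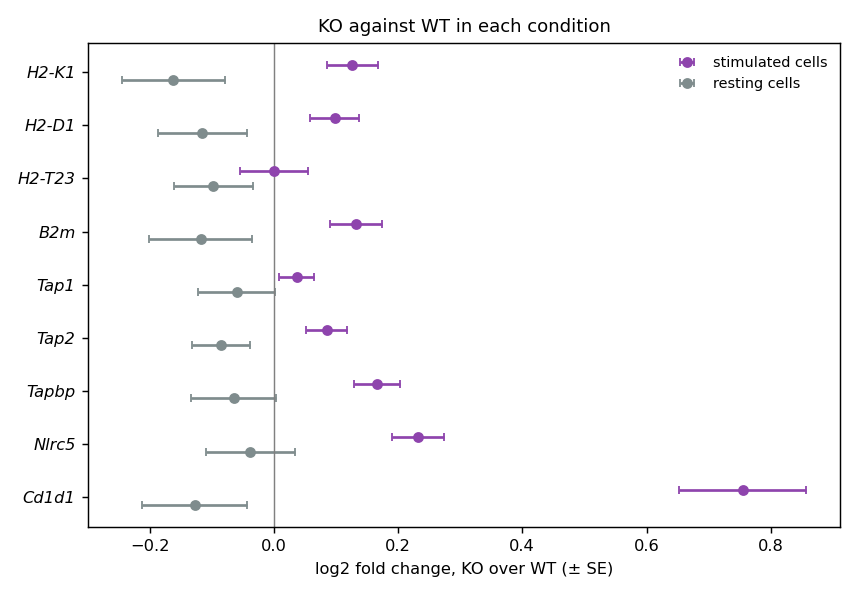
Log2 fold change of KO over WT with its SE for the 9 genes, in stimulated and in resting cells. In stimulated cells H2-T23 lies at 0 and the other 8 right of it, as far as 0.75 for Cd1d1; in resting cells all 9 lie left of 0, as far as -0.16 for H2-K1.

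Counted over the set, 3 of 9 were called higher in stimulated KO than WT cells (Tapbp, Nlrc5 and Cd1d1), where 3.37% of 15090 genes were called higher, 1.4% lower and 4.76% in either direction. In 5 of 9 (B2m, Tap2, Tapbp, Nlrc5 and Cd1d1) every KO library lay above every WT one, as in 13.4% of all genes. At rest 0 of 9 were called by edgeR, 0 at an unadjusted p under 0.05 and 0 by DESeq2; edgeR called 0.0361% of 16637 genes. Resting libraries separated for 1 of 9, Tap2, with KO below WT as in 10% of all genes. The median over the 9 was 0.13 in stimulated and -0.10 in resting cells, beside -0.00016 in stimulated and 0.0088 in resting cells over all genes. As these comparisons chose the genes, nothing is read from the counts.

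The difference of responses, KO minus WT, was above 0 for all 9, with a median of 0.21 beside -0.0077 over all genes. This direction was not particular to the set. It was also above 0 for 13 of 13 B cell markers, 10 of 10 class II presentation genes and 15 of 15 myeloid markers. Among interferon response genes it was above 0 for 24 of 25, with a median of 1.07. It was above 0 for 7 of 18 class I assembly genes and 1 of 13 CD4 T cell markers. Within the set the difference was 0.86 ± 0.11 for Cd1d1, 0.27 ± 0.10 for H2-K1, 0.25 ± 0.09 for Nlrc5, 0.23 ± 0.10 for B2m and 0.21 ± 0.09 for Tapbp. H2-D1 stood at 0.20 ± 0.09, Tap2 at 0.15 ± 0.06, Tap1 at 0.08 ± 0.08 and H2-T23 at 0.08 ± 0.09. In that fit 1 of 9 was called, Cd1d1, where 0.693% of 17460 genes were called and 0.556% called higher. Of those calls 80.2% were higher in KO, and 69.6% under DESeq2 size factors. With the marker covariate in the fit, Cd1d1 stood at 0.63, H2-T23 at -0.0034, and 0 of 9 were called, where 6 genes were called in all. This contrast also chose the 9 genes, so nothing is read from either count.

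Markers of other cells moved beside these values. The 13 B cell markers summed to 884, 896 and 919 CPM in stimulated KO, 462, 708 and 614 CPM in stimulated WT, 1646, 1875 and 1834 CPM in resting KO, and 2263, 1788 and 1282 CPM in resting WT libraries. The 15 myeloid markers summed to 105, 109.9 and 105 CPM in stimulated KO, 45.4, 73.4 and 53.2 CPM in stimulated WT, 1167, 1189 and 1198 CPM in resting KO, and 3656, 1991 and 1299.6 CPM in resting WT libraries. Both sums were higher in every stimulated KO than in every stimulated WT library, and both were lower in stimulated than in resting libraries. At rest the myeloid sum went the other way, lower in every KO than in every WT library, and the B cell sums overlapped. The 10 class II presentation genes summed to 951 to 1031 CPM in stimulated KO, 412 to 699.6 CPM in stimulated WT, 2428 to 3109 CPM in resting KO and 2227 to 3384 CPM in resting WT libraries. The 2 CD8 T cell markers summed to 31.7, 36.4 and 35.4 CPM in stimulated KO, 17.3, 24.0 and 21.6 CPM in stimulated WT, 42.9, 59.8 and 61.1 CPM in resting KO, and 45.3, 43.8 and 43.3 CPM in resting WT libraries, so KO lay above WT without overlap when stimulated. Since the B cell and myeloid sums separated the stimulated genotypes, the covariate also tracks genotype there. As the myeloid sum separated the resting genotypes, it may do so at rest too. A genotype call lost with it cannot be assigned to marker content. Beyond the covariate fits, the part of these markers in the levels of the 9 genes was not tested.

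Divided by the B cell sum, Cd1d1 no longer separated the stimulated genotypes. In CPM of Cd1d1 per 1e3 CPM of B cell markers it was 4.47, 4.58 and 4.71 in stimulated KO, 5.45, 3.52 and 3.86 in stimulated WT, 26.8, 24.5 and 25.5 in resting KO, and 24.6, 26.8 and 35.1 in resting WT libraries. KO and WT overlapped in both conditions, and every stimulated library stayed below every resting one. The stimulated overlap rests on WT replicate 1, which had the lowest B cell sum. The other stimulated WT libraries lay below all KO ones. The B cell sum itself was higher in stimulated KO. Divided by it, every other gene of the set was lower in stimulated KO than WT without overlap. What part of Cd1d1 came from B cells was not tested. With the marker covariate in the fit of stimulated libraries, KO over WT was 0.78 for Cd1d1, which was then not called, and 0.35 for Nlrc5, which was. For the other 7 genes it lay between -0.19 and 0.04.

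**Figure D4:**
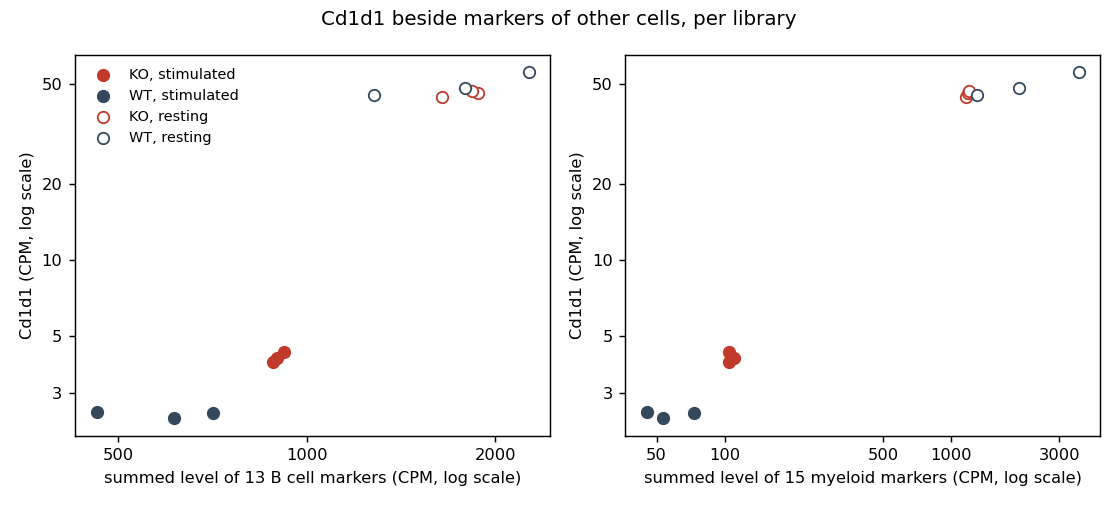
Cd1d1 in CPM (vertical, log scale) against the summed CPM of 13 B cell markers (left) and 15 myeloid markers (right; horizontal, log scale), 1 point per library. Stimulated KO libraries sit above and right of the stimulated WT ones in both panels, and the resting WT library with 55.6 CPM of Cd1d1 has the highest sums, 2263 CPM of B cell and 3656 CPM of myeloid markers.

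A single stimulated WT library weighed on the comparison. Replicate 2 had the highest H2-K1, H2-D1, H2-T23, B2m, Tap2 and Tapbp of its group, and also its highest B cell, class II, myeloid and erythroid sums (79.9 CPM of erythroid markers, against 20.5 and 22.2 CPM in replicates 1 and 3). Without it 7 of 9 were called higher in KO, where 1408 genes were called in all, against 719 with it. KO over WT was then 0.18 for H2-K1, 0.15 for H2-D1, 0.19 for B2m and 0.21 for Tapbp. Without KO replicate 2, or without KO replicate 3, 1 of 9 was called, Cd1d1, where 128 and 161 genes were called. As this comparison chose the 9 genes, nothing is read from these counts. The Cd1d1 difference itself stayed between 0.72 and 0.79 over 15 alternatives.

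Across all 12 libraries, centred within condition, the members were compared with each other and with 8783 genes averaging at least 10 CPM. H2-D1 with B2m and H2-K1 with Tap2 were most alike, each with a Pearson r of 0.97, and H2-T23 with Nlrc5 least, at 0.02. Cd1d1 followed the members' mean least by r (r 0.60, rho 0.61), and H2-T23 least by rho (r 0.70, rho 0.57). That mean includes the member itself, which raises the r of each member but not of genes outside the set. Outside the set, the genes most like that mean were Psme2 (r 0.96, rho 0.87), a proteasome activator subunit, Akr1b3 (r 0.92, rho 0.84), an aldose reductase, Epsti1 (r 0.92, rho 0.85), Phc2 (r 0.92, rho 0.89), a Polycomb protein, and Fscn1 (r 0.91, rho 0.94), an actin bundler. Centring by condition keeps the genotype differences that chose the members. Centred within each of the 4 groups, Cd1d1 had an r of -0.08 (rho 0.10) with the members' mean and Nlrc5 0.39 (rho 0.30), and of these 5 genes only Psme2 (r 0.96, rho 0.95) was again among the 5 most alike. These are descriptions over libraries that share scaling factors and marker content.

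The rest of the class I pathway was read from lists that hold none of the 9. Of 18 genes of peptide supply and chain assembly, 15 rose and 2 fell in KO, and 14 rose and 2 fell in WT cells with stimulation, where 39.6% of all genes in KO and 39.3% in WT cells rose. In the covariate fit 12 passed in KO and 9 in WT cells. Canx, a chaperone of new heavy chains, rose (1.79 ± 0.05 in KO and 1.82 ± 0.05 in WT cells), in log2 ± SE. Thop1, a cytosolic peptidase, rose (3.79 ± 0.09 in KO and 3.94 ± 0.09 in WT cells). The peptidase Blmh rose (1.93 ± 0.04 in KO and 1.94 ± 0.04 in WT cells), and the glucosidase subunit Prkcsh rose (1.57 ± 0.04 in KO and 1.66 ± 0.04 in WT cells). Psmb10, an immunoproteasome subunit, fell (-0.73 ± 0.07 in KO and -0.87 ± 0.07 in WT cells), with edgeR adjusted p = 2.7e-07 in KO and 4.4e-08 in WT. With the covariate Psmb10 stood at -0.43 in KO and -0.47 in WT cells and was not called. Between genotypes 1 of 18 passed in stimulated cells, where 4.76% of all genes passed. It was Prkcsh, at -0.11 ± 0.03 (edgeR adjusted p = 0.044), and 0 passed with the marker covariate. In resting cells 0 of 18 passed by edgeR (3 at an unadjusted p under 0.05, 0 by DESeq2).

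Of 25 other class I and class I-like chains listed, 17 were tested, and with stimulation 0 rose and 16 fell in KO, and 0 rose and 17 fell in WT cells, where 43.2% of all genes in KO and 44.8% in WT cells fell. Under the covariate 11 passed in KO and 10 in WT cells. H2-Q7, a nonclassical chain of the Q region, had 417, 425 and 446 CPM in stimulated KO, 331, 371 and 349 CPM in stimulated WT, 1384, 1272 and 1379 CPM in resting KO, and 1327, 1429 and 1423 CPM in resting WT libraries. All stimulated libraries lay far below the resting ones, and it fell (-1.65 ± 0.06 in KO and -1.99 ± 0.06 in WT cells), with edgeR adjusted p = 2.9e-11 in KO and 4.7e-12 in WT. Hfe, known for iron regulation, fell (-5.19 ± 0.43 in KO and -6.29 ± 0.44 in WT cells). Fcgrt, the neonatal Fc receptor, fell (-7.82 ± 0.68 in KO and -9.13 ± 0.69 in WT cells), and in resting WT libraries it was at 73.9, 39.1 and 19.4 CPM beside 3656, 1991 and 1299.6 CPM of myeloid markers in the same libraries. In the covariate fit Hfe stood at -0.88 in KO and -0.51 in WT cells and was not called, and Fcgrt stood at -2.22 in KO cells, still called, and at -1.64 in WT cells, not called.

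Between genotypes 6 of 15 tested chains were higher in stimulated KO cells and 0 lower, beside 3.37% higher and 1.4% lower over all genes. H2-Q5 had 26.8, 25.8 and 27.6 CPM in stimulated KO and 16.4, 20.1 and 18.9 CPM in stimulated WT libraries, a difference of 0.54 ± 0.07 (edgeR adjusted p = 0.0041). H2-Q6 had 199.8, 203 and 208 CPM in stimulated KO and 126, 159 and 141 CPM in stimulated WT libraries, a difference of 0.53 ± 0.07 (edgeR adjusted p = 0.012). KO and WT did not overlap for either chain. H2-Q7 differed by 0.30 ± 0.04 and H2-Q4 by 0.15 ± 0.03 (edgeR adjusted p = 0.0061 and 0.028). H2-M2 at 1.92 ± 0.37 and Cd1d2 at 1.87 ± 0.46 passed on levels of at most 0.628 CPM in stimulated libraries (edgeR adjusted p = 0.022 and 0.047). With the marker covariate 0 passed, and H2-Q5 stood at 0.31 and H2-Q6 at 0.23; without WT replicate 2, 10 passed, and as few as 2 without another library. H2-Q5 shares 36.4%, H2-Q6 32.0% and H2-Q7 26.4% of 50-base stretches with other genes, so their values are uncertain where reads were split. At rest 0 of 17 passed by edgeR (3 at an unadjusted p under 0.05, 2 by DESeq2).

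**Figure D5:**
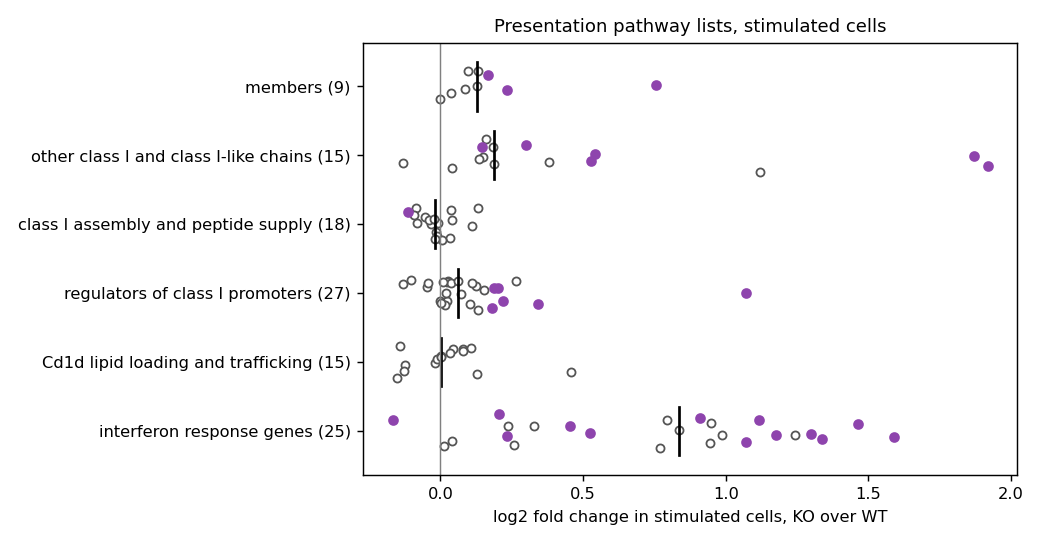
Log2 fold change of KO over WT in stimulated cells for the 9 genes and 5 pathway lists; each circle is a tested gene, filled where the adjusted p was under 0.05, and the bar is the list's median. The median is 0.13 for the 9 genes, 0.19 for other class I chains, -0.02 for assembly genes, 0.06 for regulators, 0.0013 for lipid loading and 0.84 for interferon response genes.

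Among 27 regulators of class I promoters and interferon signalling, 13 rose and 13 fell in KO, and 12 rose and 13 fell in WT cells with stimulation. Over all genes 39.6% rose and 43.2% fell in KO, and 39.3% rose and 44.8% fell in WT cells. With the marker covariate 17 passed in KO and 14 in WT cells. Ifng, the gene of interferon gamma, rose (4.83 ± 0.48 in KO and 3.99 ± 0.46 in WT cells), and its receptor chain Ifngr1 fell (-2.25 ± 0.10 in KO and -2.55 ± 0.10 in WT cells). Socs1, an inhibitor of that signal, rose (2.63 ± 0.08 in KO and 2.58 ± 0.08 in WT cells). Irf1, an activator of class I genes, rose (0.60 ± 0.04 in KO and 0.37 ± 0.04 in WT cells), with edgeR adjusted p = 2.5e-08 in KO and 3.3e-06 in WT. Under unscaled totals Irf1 stood at 0.27 in KO, still called, and at 0.03 in WT cells, not called, and with the covariate it was not called in WT cells (0.39). With the covariate Ifng stood at 8.03 in KO and 8.09 in WT cells, and Ifngr1 at -1.57 in KO and -1.64 in WT cells, all called. In stimulated cells 6 of 27 were higher in KO than WT and 0 lower, beside 3.37% higher and 1.4% lower over all genes. Ciita, the class II transactivator, was at 18.6, 17.9 and 21.1 CPM in stimulated KO and 6.93, 11.2 and 9.45 CPM in stimulated WT libraries, a difference of 1.07 ± 0.16 without overlap (edgeR adjusted p = 0.021). Ciita is also counted among the class II presentation genes. It kept its call in 9 of 15 alternatives, with differences of 0.53 to 1.23. Irf9, part of the interferon-activated complex, differed by 0.34 ± 0.04, Ifngr1 by 0.22 ± 0.05 and Ifnar1, an interferon receptor chain, by 0.20 ± 0.04 (edgeR adjusted p = 0.0042, 0.028 and 0.015). With the marker covariate 4 passed, and 1 to 9 with 1 library left out, the most without WT replicate 2. At rest 0 of 27 passed by edgeR (6 at an unadjusted p under 0.05, 4 by DESeq2).

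Of 25 interferon response genes, 3 rose and 22 fell in KO, and 3 rose and 22 fell in WT cells with stimulation. Of all genes, 39.6% rose and 43.2% fell in KO, and 39.3% rose and 44.8% fell in WT cells. With the marker covariate 11 passed in KO and 10 in WT cells. Oas2, an antiviral oligoadenylate synthetase, fell (-4.02 ± 0.17 in KO and -5.24 ± 0.18 in WT cells). Gbp2, an interferon-induced GTPase, rose (3.68 ± 0.10 in KO cells). The 25 genes summed to 1422 to 1481 CPM in stimulated KO and 1405 to 1511 CPM in stimulated WT libraries. At rest they summed to 1077 to 1244 CPM in KO and 1249 to 1344 CPM in WT libraries, so their total did not fall. In stimulated cells 12 were higher and 1 lower in KO than WT, beside 3.37% higher and 1.4% lower over all genes. Oasl1, an oligoadenylate synthetase-like gene, was at 3.13 to 4.47 CPM in stimulated KO and 0.942 to 1.67 CPM in stimulated WT libraries, a difference of 1.59 ± 0.22 (edgeR adjusted p = 0.007). Rsad2, known as viperin, differed by 1.34 ± 0.23 and Oasl2 by 1.46 ± 0.29 (edgeR adjusted p = 0.013 and 0.044). Gbp2 was the gene lower in stimulated KO than WT, at -0.17 ± 0.04 (edgeR adjusted p = 0.036). Without WT replicate 2, 20 of 25 passed, 1 with the marker covariate, and as few as 4 without another library. At rest 0 of 25 passed by edgeR (5 at an unadjusted p under 0.05, 2 by DESeq2).

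Of 15 genes that load lipids on Cd1d or carry it through the cell, 4 rose and 10 fell in each genotype with stimulation. The shares over all genes were 39.6% up and 43.2% down in KO, and 39.3% up and 44.8% down in WT cells. With the marker covariate 8 passed in KO and 7 in WT cells. Psap, the precursor of the lipid-loading saposins, fell (-1.91 ± 0.20 in KO and -2.62 ± 0.21 in WT cells), and the protease Ctss fell (-2.03 ± 0.18 in KO and -2.93 ± 0.19 in WT cells). Gm2a, a lipid transfer protein, fell (-2.40 ± 0.10 in KO and -2.47 ± 0.10 in WT cells). With the marker covariate the change of Psap turned to 0.25 in KO and 0.28 in WT cells and was not called, and Ctss, at -0.10 in KO and -0.39 in WT cells, was not called either. Gm2a stood at -1.41 in KO and -1.17 in WT cells and was still called. Between genotypes 0 of 15 passed by edgeR (6 at an unadjusted p under 0.05, 2 by DESeq2) in stimulated cells, and 0 of 15 passed by edgeR (4 at an unadjusted p under 0.05, 1 by DESeq2) at rest. Psap stood at 0.13 ± 0.04 and Npc2, a sterol carrier, at -0.12 ± 0.04 in stimulated cells, where Cd1d1 stood at 0.75 ± 0.10.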

How the data were processed

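Per gene, the authors deposited RSEM expected counts, with resting and stimulated libraries in separate tables. Per the submitters' processing notes, bcl2fastq 2.20, cutadapt 1.18, STAR 2.7.0f and RSEM 1.3.1 were used with build mm10; their roles and settings are not stated. Per the labels' protocols the kit was stranded. The labels give the culture both as 24 h and as overnight, and the source both as spleen with lymph nodes and as splenocytes.

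Expected counts were rounded to whole numbers and filtered with filterByExpr (at least 10 counts, total of at least 15). After TMM scaling, edgeR 4.0.16 (R 4.3.3) gave robust quasi-likelihood F-tests, adjusted by Benjamini-Hochberg over all genes at 0.05. KO and WT were compared in the 6 libraries of a condition; stimulation and the difference of responses came from all 12. The steps were tested on simulated data. CPM use TMM-scaled totals of the 12 libraries. Library pairs within a group differed by more than sampling noise (chi-square per degree of freedom of at least 3.79). Coordinates and exon lengths are from GENCODE M21, promoters from RefSeq.

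The members and lists were chosen with earlier results of these data known. The text names, per list and comparison, genes among up to 4 that passed with the largest change, or the 2 of highest mean where 0 passed; Psmb9, Psmb10, H2-Q7, H2-Q4, Irf1 and Gbp2 (KO against WT) were picked outside this rule with values in view. Alternatives were DESeq2 1.42.0 (size factors, Wald test), no count filter, at least 1 CPM in 3 libraries, a non-robust fit, a replicate block, all 12 libraries in the fit, a marker covariate and leaving out each library. Unscaled totals were added after seeing the data.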

Additional observations from a re-analysis of the deposited data

Results flagged for a closer look

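The response to stimulation differed between genotypes, by the interaction term of the edgeR fit, for 7 of the named genes outside the set. They were named because they passed, so their number is not a result. Each had a higher log2 value in KO, as did 80.2% of all genes called. The difference, KO minus WT, was 1.89 for H2-Q2, 0.67 for H2-Q6 and 0.61 for H2-Q5 among the other class I chains. H2-Q2 averaged only 0.20 CPM in stimulated libraries, where KO against WT was not called (edgeR adjusted p = 0.12). Among interferon response genes it was 1.62 for Oasl1, 1.49 for Mx1, 1.38 for Isg15 and 1.33 for Oas1a. Adjusted edgeR p-values of these 7 lay between 0.015 for H2-Q6 and Mx1 and 0.048 for Isg15, and with the marker covariate the lowest was 0.099. With 1 library left out, 1 to 6 of the other class I chains passed, against 3 with all libraries, and 1 to 13 of the interferon response genes, against 6. Of 20 alternatives, Isg15 passed in 7 and H2-Q2 and Oas1a in 12 each. For Cd1d1 the difference was 0.86. It was among the values that chose the set, so its call is not read as a result.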

How the results depend on the processing

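The stimulation changes of the 9 genes reversed under 0 alternatives; 5 calls were gained in KO cells, all of Tap2, and 5 were lost in KO and 6 in WT cells, all with the marker covariate. In stimulated KO against WT, 719 genes were called, against 1133 by DESeq2, 219 with all 12 libraries in the fit, 413 with the marker covariate and 128 to 1408 with 1 library left out. Of the 9, 3 were called, against 5, 1 and 1 in those fits and 1 to 7 with 1 library left out. At rest 6 genes were called, against 518 by DESeq2, 40 without a count filter, 161 with all 12 libraries, 248 with the covariate and 2 to 18 with 1 library left out. With stimulation the covariate left 7626 of 14467 calls in KO and 6221 of 14682 in WT cells, and 3 of the 9 in each genotype (H2-K1, Nlrc5 and Cd1d1). For the difference of responses 121 genes were called, against 1012 by DESeq2, 204 with the 1 CPM filter, 6 with the covariate and 27 to 1646 with 1 library left out, the most without WT resting replicate 3; of the 9, 1 and, with the covariate, 0. Under the covariate the stimulation changes of Psap (0.25 in KO, 0.285 in WT) and Ctsl (2.06 in WT) turned sign; the cause was not tested. Unscaled totals, which lower each stimulation change, put Psmb9 in WT cells at -0.0412.

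The main fits did not pair libraries by replicate number. Same-numbered KO and WT libraries correlated at -0.03, 0.01 and 0.02 when stimulated and 0.33, -0.11 and 0.27 at rest. Libraries of different number were not compared, so these values do not settle whether the samples were paired. With a replicate block, 997 genes were called between stimulated and 5 between resting genotypes, 14442 with stimulation in KO, 14615 in WT, and 95 for the difference; of the 9, 4, 0, 8, 9 and 1 were called. The stimulated WT libraries held 160 counts of Cd1d1 on average, which limits its precision there.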
